A study of Rattus norvegicus with 7 samples.

Results

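The imprinted growth genes described here are Peg3, Plagl1, Mest, Igf2, Grb10, Cdkn1c, Igf2r, Meg3 and Gnas, 9 gene symbols looked up among the 25399 genes listed for nuclei of rat kidney. 8 of the 9 symbols were found, and Gnas stood under 2 gene identifiers, so 9 identifiers were followed. No gene was listed under the symbol Meg3, and Meg3 was not analysed here. The genes were chosen by symbol with the UMI counts of these libraries, by cell class and by group, already known. Their levels by cell type and their differences between 1-kidney and 2-kidney libraries are therefore descriptions and carry no independent support. The study profiled kidneys of HSRA rats at 4 weeks of age by droplet-based single-nucleus RNA sequencing. The 1-kidney group (3 libraries) came from rats with 1 kidney and the 2-kidney group (4 libraries) from rats with 2 kidneys, and by the labels' numbers these match HSRA-S (3) and HSRA-C (4). Both groups are HSRA rats, and no allele, treatment or cause of the missing kidney is named in the labels. Each library carries an animal number of its own. It was made from a piece of stored kidney cut through the centre, with cortex and medulla in shares that the labels do not state.

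Imprinted genes are genes for which the copy from one parent is silenced, and most of what is known of them comes from the mouse. There, Peg3, Plagl1, Mest and Igf2 are read mainly from the father's copy and tend to promote growth, while Cdkn1c, Igf2r, Meg3 and, outside neurons, Grb10 are read from the mother's copy and tend to restrain it. Gnas is a compound locus with transcripts from either copy. Many of these genes are abundant in the fetus and decline after birth, and Cdkn1c stays on in the podocytes of the adult mouse kidney. The silencing is set by DNA methylation at CpG dinucleotides of control regions, some of which lie at the start of a gene, and these single-nucleus counts do not separate the parental copies.

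The promoters of Peg3 and Plagl1 are shown because the RNA of both genes was lower in the same pair of 2-kidney libraries, as described further on. Each run is the 250 bases before the gene's start in RefSeq, build GRCr8, plus strand, with every CG dinucleotide in capitals.
Peg3, chr1:76130744-76130993: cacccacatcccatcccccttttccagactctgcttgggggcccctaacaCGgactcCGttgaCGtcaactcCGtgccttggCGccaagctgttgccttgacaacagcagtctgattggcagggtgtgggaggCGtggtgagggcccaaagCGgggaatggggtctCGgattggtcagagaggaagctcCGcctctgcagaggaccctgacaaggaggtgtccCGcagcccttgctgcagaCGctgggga
Plagl1, chr1:9297214-9297463: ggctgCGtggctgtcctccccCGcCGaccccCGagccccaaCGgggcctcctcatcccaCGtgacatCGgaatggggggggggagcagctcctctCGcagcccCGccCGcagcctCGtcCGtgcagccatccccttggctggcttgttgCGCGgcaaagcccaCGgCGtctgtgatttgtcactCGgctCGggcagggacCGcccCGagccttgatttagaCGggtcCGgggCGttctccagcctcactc
The motif searched was CG, which reads the same on both strands. The Peg3 window held 11 CG dinucleotides, a number reached or passed by 33.6% of 33469 promoter windows of the same length, and the Plagl1 window held 23, reached or passed by 12.3%. The median window held 5. Methylation at these bases was not analysed here.

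The nuclei kept for the analysis numbered 2263 to 4448 per 1-kidney library and 3933 to 5952 per 2-kidney library. Their total counts of unique molecular identifiers (UMIs) ran from 5581726 to 18121620 in the 1-kidney libraries and from 14962864 to 27069632 in the 2-kidney libraries. Clusters gave 20 named classes, each standing for nuclei that are like the named type by its markers, and 2 clusters stayed unnamed. The unnamed nuclei were 10.6% of nuclei but held 41.6% of UMIs, and their median doublet scores, 0.0894 and 0.0714, were the highest of the 23 clusters. The library names carry 2 set codes that the labels do not explain. All 3 1-kidney libraries and 2-kidney replicates 1 and 2 have P1117, while 2-kidney replicates 3 and 4 have P1117B and stood apart. The summed level of 10 proximal tubule markers was 19083 and 23668 CPM, the UMIs of a gene scaled to a common library total, in set P1117B, against 34037 to 43047 CPM in set P1117. The 8 cycling markers summed to 229 and 236 CPM in set P1117B, against 322 to 611 in set P1117. Of 31111 distinct barcodes, 116 occurred in more than 1 library. Proximal tubule RNA was also present in other classes. Its transporter Slc34a1 stood at 2670 CPM in podocytes, the lowest class, and at 18217 CPM in endothelium.

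Peg3, a zinc-finger protein that acts in growth and cell survival in the mouse, was counted with 13393 UMIs. Its mean over libraries ran from 67.6 ± 22.9 CPM in endothelium to 322 ± 148 CPM in macula densa nuclei (SD, n = 7 libraries), the sensor cells at the end of the thick ascending limb. Macula densa nuclei held 441, 343 and 577 CPM in the 1-kidney libraries, against 277, 283, 156 and 178 CPM in the 2-kidney libraries. The groups did not overlap there, as for 8.38% of genes counted in every library, and the class was too small for a test, with 30 to 109 nuclei per library. Fibroblasts followed at 231 ± 65.5 CPM, mural cells at 209 ± 135, distal convoluted tubule at 177 ± 40.0 and connecting tubule at 162 ± 77.5 CPM. No neighbours among these first classes differed by more than the larger of their SDs, and macula densa was the highest class in 4 of 7 libraries. With nuclei assigned by marker score in place of clusters, the ratio of macula densa to the mean of the other classes was 1.26 in place of 2.52. The Peg3 level of endothelium was below the 85.3 CPM that RNA of all nuclei would bring along with its Slc34a1, so the lowest Peg3 levels cannot be told apart from free RNA. The same held for macrophages and dendritic cells (101 CPM, beside 132) and for haemoglobin-high nuclei (100.5 CPM, beside 113).

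Plagl1, a zinc-finger transcription factor that slows proliferation in cell culture and regulates other imprinted genes in the mouse, was counted with 2645 UMIs. Principal cells, the water- and sodium-transporting cells of the collecting duct, had the highest mean, 117 ± 44.4 CPM (SD, n = 7 libraries). They held 192, 96.4 and 133 CPM in the 1-kidney libraries, against 97.7, 155, 70.1 and 77.1 CPM in the 2-kidney libraries, so the groups overlapped. Mural cells (81.7 ± 66.9 CPM), podocytes (78.1 ± 38.2) and parietal epithelium (57.9 ± 30.5) came next, and no step between these 4 classes passed the larger SD. The lowest level was 6.63 ± 4.04 CPM in the Slc7a13-high proximal tubule. Principal cells stood 4.17 times above the mean of the other classes.

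Mest, an enzyme of the alpha/beta-hydrolase fold that is tied to growth in the mouse, was sparse, with 341 UMIs in all. Its level was highest in macula densa nuclei. They held 29.4, 158 and 36.1 CPM in the 1-kidney libraries, against 72.9, 78.7, 101 and 96.5 CPM in the 2-kidney libraries. The mean there was 81.8 ± 43.4 CPM (SD, n = 7), from 76 UMIs, and the groups overlapped. Principal cells followed at 28.2 ± 32.6 and parietal epithelium at 14.4 ± 11.6 CPM. In principal cells 1 library decided the mean, with 95.7 CPM in 2-kidney replicate 2 and 0 to 40.1 CPM in the others. The other 17 classes had means of 0 to 3.46 CPM. Mest was also among the 10 leading genes of the macula densa cluster, which was made from the same counts, so its level there may not be independent of the clustering. With nuclei assigned by marker score, the ratio of macula densa to the mean of the other classes was 12.3 in place of 39.6.

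Igf2, the fetal growth factor that binds the IGF1 receptor, had 8 UMIs in 31227 nuclei. Each library held from 0 to 3 counts, which is at or under the floor of 3 counts, or 0.111 to 0.537 CPM. No level, order or difference is therefore given for Igf2.

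Grb10, an adaptor that dampens signalling from the insulin and IGF receptors, was counted with 16400 UMIs and differed 32.5-fold between its highest and lowest class. It reached 1082 ± 200 CPM in the Slc26a4-high intercalated cells and 538 ± 80.0 CPM in the Slc4a1-high intercalated cells (SD, n = 7 each). These are the bicarbonate-secreting and acid-secreting cells of the collecting duct. The Slc26a4-high cells held 1338, 1056 and 830 CPM in the 1-kidney libraries, against 1069, 878, 1342 and 1058 CPM in the 2-kidney libraries. The Slc4a1-high cells held 592, 410 and 574 CPM in the 1-kidney libraries, against 448, 524, 598 and 616 CPM in the 2-kidney libraries. In all 7 libraries the first class was the highest and stood above the second, and the second stood above the third, fibroblasts, at 260 ± 43.6 CPM. Both gaps were larger than the larger SD, and the 1-kidney and 2-kidney libraries overlapped in both classes. The lowest level was 33.3 ± 6.89 CPM in the Slc7a13-high proximal tubule, while the Slc13a3-high proximal tubule held 169 ± 16.1 CPM.

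After each nucleus was thinned to 1000 UMIs, Grb10 was detected in 57.4% ± 6.93 of Slc26a4-high intercalated nuclei and in 3.34% ± 0.616 of Slc7a13-high proximal tubule nuclei (SD, n = 7). Unthinned, the shares were 75.0% and 9.56%, with median depths of 1876 and 3067 UMIs. Thinning left out nuclei with fewer UMIs, 2828 in the 1-kidney group and 3321 in the 2-kidney group. The share was larger in Slc26a4-high intercalated nuclei than in Slc7a13-high proximal tubule nuclei both thinned and unthinned. The share that free RNA would bring was not estimated.

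Cdkn1c, the cyclin-dependent kinase inhibitor p57 that keeps mature podocytes out of the cell cycle, was concentrated in podocytes. They held 276 of its 570 UMIs. Podocytes held 148, 136 and 87.1 CPM in the 1-kidney libraries, against 96.2, 50.9, 54.6 and 71.7 CPM in the 2-kidney libraries. The mean was 92.1 ± 37.8 CPM (SD, n = 7), podocytes were the highest class in every library, and the gap to the next class exceeded the larger SD. Fibroblasts held 0, 0 and 9.29 CPM in the 1-kidney libraries, against 17.4, 12.8, 20.8 and 15.3 CPM in the 2-kidney libraries, from 32 UMIs in all. Cdkn1c was below the filter on low counts in fibroblasts and was not tested there. Endothelium stood at 9.32 ± 8.49 CPM and no other class had a mean above 4.20 CPM.

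Igf2r, which carries IGF2 and mannose-6-phosphate-tagged enzymes to lysosomes, was broad and even by comparison (20493 UMIs). The Slc13a3-high proximal tubule, an endocytic segment, led with 234, 253 and 237 CPM in the 1-kidney libraries, against 361, 244, 309 and 280 CPM in the 2-kidney libraries. The mean there was 274 ± 46.9 CPM (SD, n = 7), and podocytes had the lowest, 57.3 ± 22.3 CPM. The proximal tubule class was the highest in 5 of 7 libraries, and the step to the next class, urothelium at 222 ± 88.0 CPM in 4 libraries, was within the larger SD. In endothelium Igf2r stood at 134 ± 30.3 CPM, beside 130.5 CPM that RNA of all nuclei would bring along with its Slc34a1. Its level in such classes cannot be told apart from free RNA.

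Gnas, the locus of the stimulatory G protein alpha subunit that couples hormone receptors to cAMP, was counted under ENSRNOG00000047374 (1001 UMIs) and ENSRNOG00000025889 (223 UMIs). Reads of overlapping transcripts can be split between the 2 identifiers, and the labels state neither the transcripts behind each nor a strand setting, so both are uncertain. ENSRNOG00000047374 held 17.8, 7.14 and 10.9 CPM in principal cells of the 1-kidney libraries, against 13.6, 19.1, 23.4 and 19.5 CPM in those of the 2-kidney libraries. Its mean was 15.9 ± 5.63 CPM there, 14.9 ± 6.42 in endothelium and 21.0 ± 25.2 in mural cells, which held only 10 of its UMIs. No order among its leading classes held beyond the SD. The other identifier stayed at or below 5.50 CPM in every class.

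**Figure D1:**
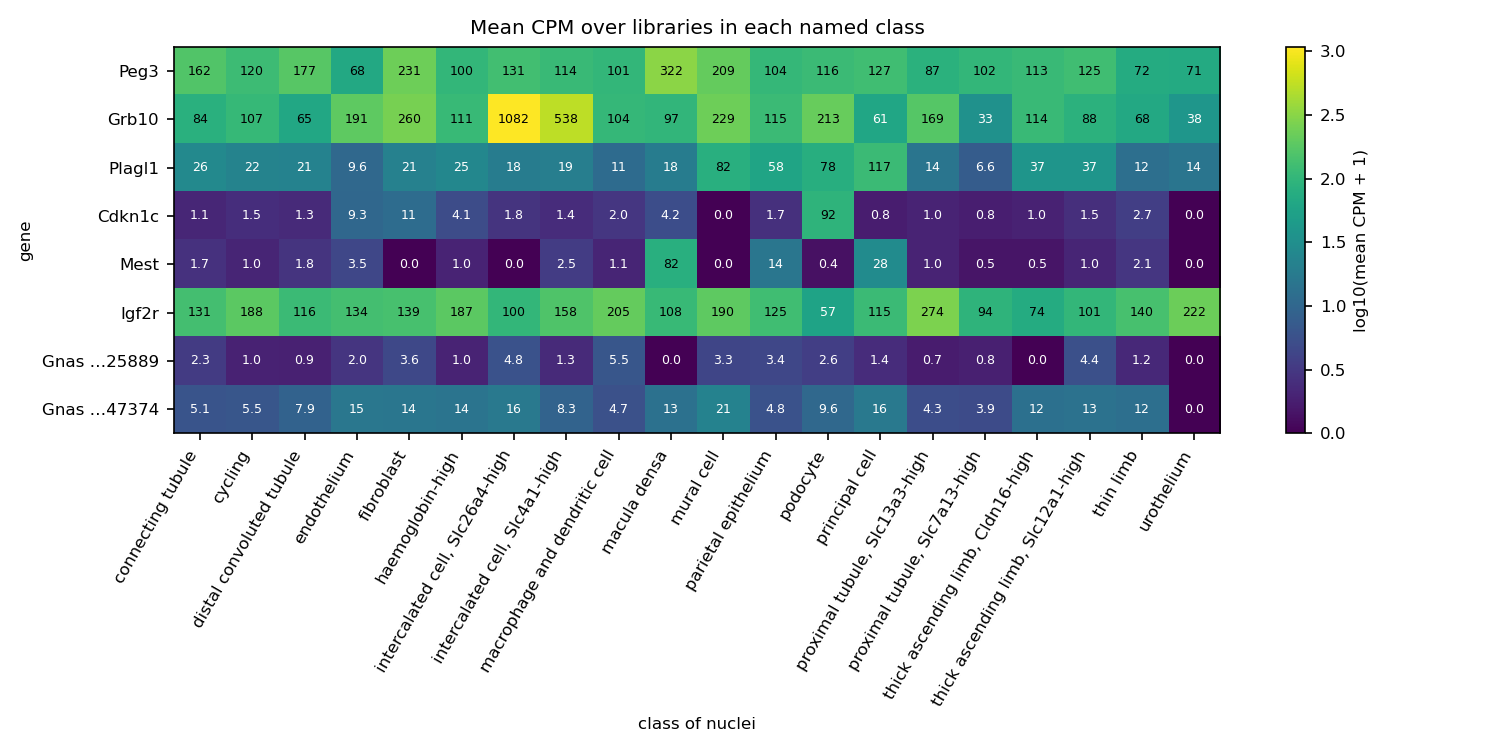
Mean CPM over libraries of each counted imprinted growth gene (rows) in the 20 named classes (columns), with the mean printed in each cell and the colour giving log10(mean CPM + 1). Grb10 stands out in both intercalated classes (1082 and 538 CPM), Cdkn1c in podocytes (92.1 CPM) and Mest in macula densa nuclei (81.8 CPM), while Peg3 and Igf2r vary less between classes.

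**Figure D2:**
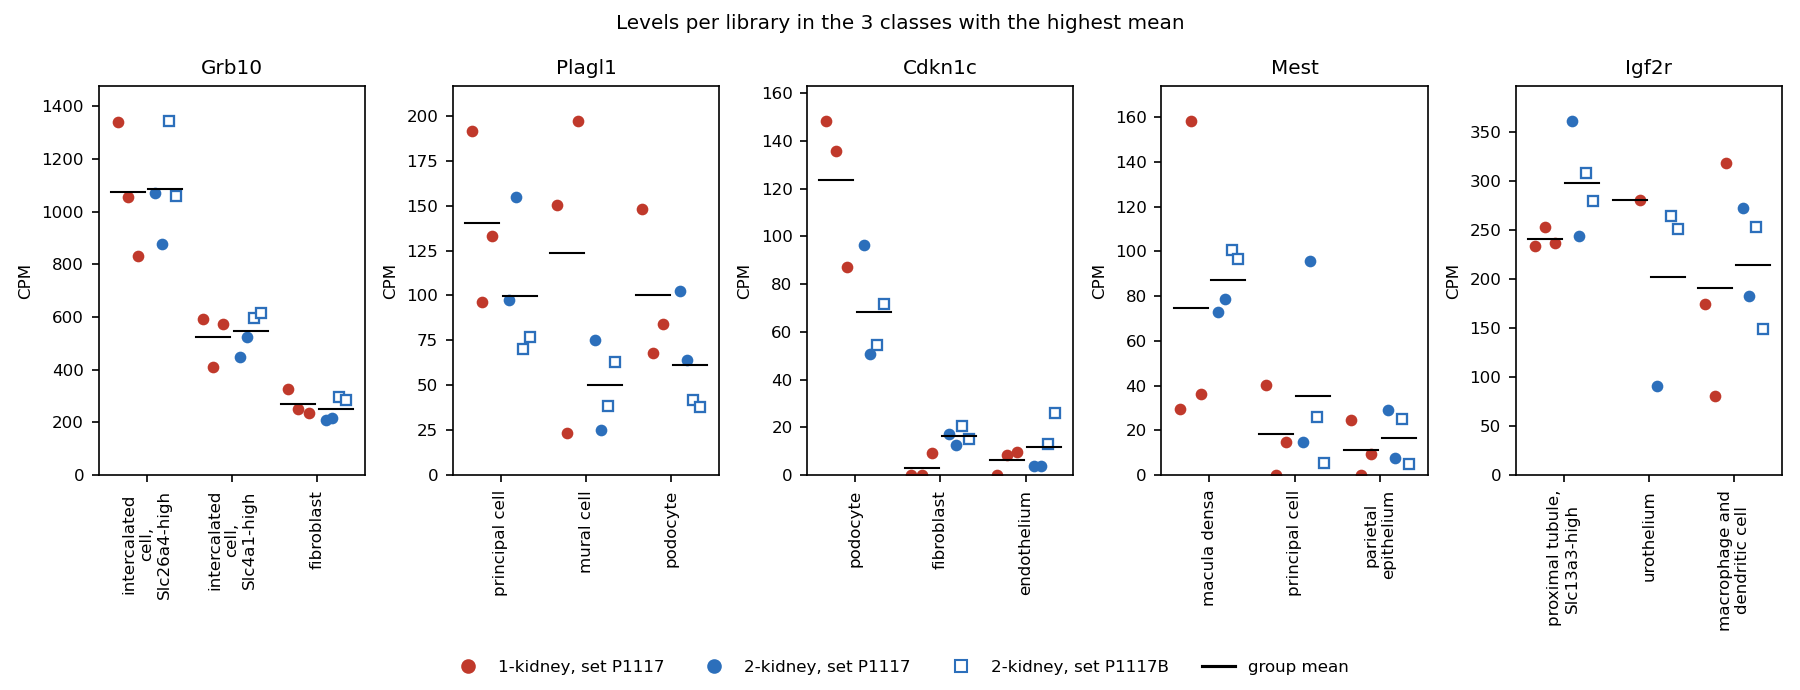
CPM per library of 5 genes in the 3 classes with the highest mean, 1-kidney libraries left of 2-kidney libraries in each class, open squares for set P1117B and bars for group means. The Grb10 and Cdkn1c points of the leading class lie above those of the next class in every library, and those of Mest do not.

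The members did not share 1 pattern over the classes. Pearson's r between the log2(CPM + 1) means of 2 members over the 20 classes ran from −0.46 for Cdkn1c with Igf2r to 0.47 for Grb10 with Gnas ENSRNOG00000025889, as a description over classes that share libraries. The genes whose class means were most like those of a member were sought among genes with at least 1000 UMIs. For Cdkn1c they were Rxfp2 (r = 0.92), Tdrd5 (0.91) and Myt1l (0.91), and for Igf2r Arfgef3 (0.88), Slc22a23 (0.86) and Bnc2 (0.85). For Grb10 they were Pxdc1 (0.85), Ccdc80 (0.83) and Dmxl1 (0.80), and for Mest Wwc2 (0.82), Nos1 (0.75) and Luzp2 (0.73). For Peg3 they were Arfgap1 (0.81), Kdm5d (0.77) and Sec23ip (0.75), and for Plagl1 Dtna (0.78), Casc4 (0.78) and Sos2 (0.75). For Gnas ENSRNOG00000047374 they included Ankrd50 (0.82) and Vamp3 (0.79), and for Gnas ENSRNOG00000025889 Telo2 (0.72), Psmd7 (0.71) and Psme2 (0.70). Rxfp2 and Tdrd5 were among the 10 leading genes of the podocyte cluster, and Ccdc80 among those of the Slc26a4-high cluster. Bnc2 was among those of the Slc13a3-high proximal tubule cluster, and Nos1 was in the marker list used to name macula densa nuclei.

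The comparison of 1-kidney with 2-kidney libraries addresses which RNA levels differ between HSRA rats with 1 kidney and those with 2. It was made first on the summed UMIs of each library's nuclei, named or not, where fewer cells of a type and less RNA per cell cannot be told apart. Peg3 held 159, 143 and 138 CPM in the 1-kidney libraries, against 143, 119, 73.1 and 62.8 CPM in the 2-kidney libraries. The 2 lowest values were those of set P1117B, while 2-kidney replicate 1 lay within the 1-kidney range, so the groups overlapped. Gnas ENSRNOG00000047374 held 5.55, 5.13 and 4.47 CPM in the 1-kidney libraries, against 6.82, 6.24, 11.5 and 11.6 CPM in the 2-kidney libraries, and the groups did not overlap. It was 1 of 8 tested member identifiers whose groups did not overlap, beside 18.1% of 16441 genes counted in every library. Plagl1 held 33.7, 19.4 and 24.7 CPM in the 1-kidney libraries, against 29.5, 27.4, 15.3 and 15.1 CPM in the 2-kidney libraries, with overlap. Marker sums of several cell types also separated the groups. The 10 proximal tubule markers summed to 37338 to 43047 CPM for 1-kidney libraries, against 19083 to 34328 CPM for 2-kidney libraries. Slc13a3-high proximal tubule nuclei made up 3.01% to 4.90% of nuclei per 1-kidney library, against 3.81% to 14.1% per 2-kidney library. Slc7a13-high proximal tubule nuclei made up 17.1% to 22.1%, against 13.2% to 19.3%. Both shares overlapped between groups, so the proximal tubule sum was not read as a share of nuclei. The sums were lower in the 1-kidney libraries for the 6 parietal epithelium markers (455 to 537 CPM, against 577 to 793 CPM in the 2-kidney libraries) and the 8 thin limb markers (94.5 to 146 CPM, against 196 to 219 CPM in the 2-kidney libraries). The 6 nephron progenitor markers summed to 37.3 to 45.03 CPM in the 1-kidney and to 47.9 to 61.1 CPM in the 2-kidney libraries. All markers of these lists were counted, and their part in the differences of the members was not tested.

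Grb10 averaged 133 ± 29.0 CPM in the 1-kidney and 134 ± 20.6 CPM in the 2-kidney libraries, and Igf2r averaged 153 ± 13.7 CPM in the 1-kidney and 172 ± 33.4 CPM in the 2-kidney libraries (SD, n = 3 and 4). Cdkn1c averaged 4.72 ± 1.32 CPM in the 1-kidney and 4.47 ± 1.72 CPM in the 2-kidney libraries. Mest averaged 2.15 ± 0.203 CPM in the 1-kidney and 3.33 ± 2.36 CPM in the 2-kidney libraries, where replicate 2 held 6.77 CPM. Without that library the log2 fold of Mest was 0.01, in place of −0.62.

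edgeR's quasi-likelihood test, 1-kidney over 2-kidney, called 0 of the 8 tested member identifiers at an adjusted p under 0.05, beside 0% of 14940 genes. At an unadjusted p under 0.05, 2 members and 3070 genes passed, and DESeq2 called 0 members and 485 genes. The log2 fold of Peg3 was 0.60 ± 0.25 (SE, adjusted p = 0.222), that of Gnas ENSRNOG00000047374 −0.84 ± 0.28 (adjusted p = 0.188) and that of Gnas ENSRNOG00000025889 −0.91 ± 0.41 (adjusted p = 0.244). The folds of Plagl1 (0.27 ± 0.28), Grb10 (0.01 ± 0.18), Igf2r (−0.13 ± 0.16), Cdkn1c (0.15 ± 0.30) and Mest (−0.62 ± 0.51) did not pass either, with adjusted p = 0.470 to 0.968 by edgeR. The median fold over the 8 identifiers was −0.06, beside −0.01 over all genes tested.

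**Figure D3:**
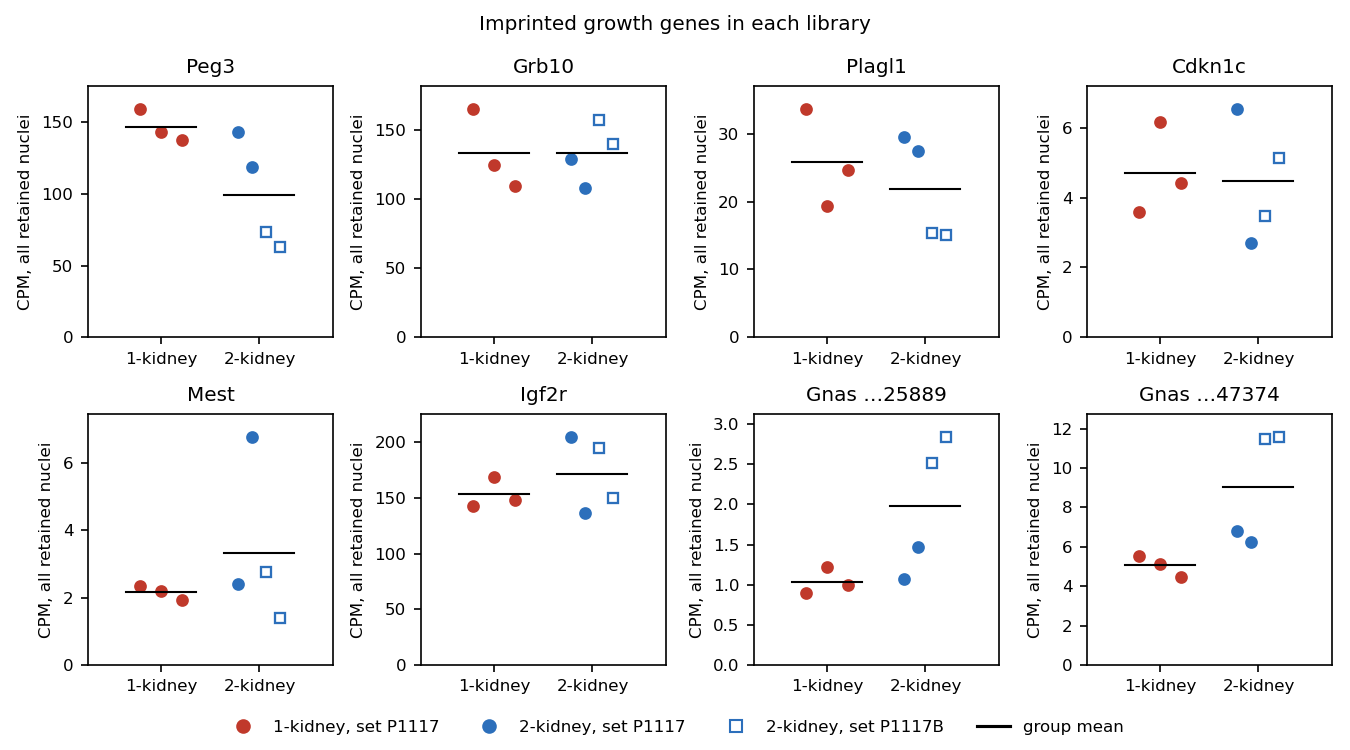
CPM per library of each counted member over all retained nuclei, 1-kidney left of 2-kidney, with open squares for set P1117B and bars for group means. For Peg3 and Plagl1 both open squares lie below all other points, and for both Gnas identifiers above them.

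The group differences of Peg3 and both Gnas identifiers were smaller within set P1117. With its 3 1-kidney and 2 2-kidney libraries, the log2 fold of Peg3 was 0.20 ± 0.13 and that of Gnas ENSRNOG00000047374 −0.35 ± 0.21 (adjusted p = 0.605 and 0.586, edgeR). Plagl1 stood at −0.13 ± 0.21 there, with the opposite sign, and Mest at −1.11 ± 0.44 (adjusted p = 0.435). A fit with set and group together gave 0.22 ± 0.13 for Peg3. That fit also gives the difference between the sets, which rests on the 2-kidney libraries, 2 against 2. Between the sets P1117B and P1117, edgeR called 4 of the 8 member identifiers, beside 20.3% of 15275 genes. Peg3 fell by 0.88 ± 0.14 on the log2 scale in set P1117B (adjusted p = 0.00741) and Plagl1 by 0.85 ± 0.22 (adjusted p = 0.0270). Gnas ENSRNOG00000047374 rose by 0.87 ± 0.18 (adjusted p = 0.0136) and Gnas ENSRNOG00000025889 by 1.11 ± 0.31 (adjusted p = 0.0363). For the same 4 identifiers the libraries of the 2 sets did not overlap, beside 46.4% of genes. Marker sums moved with the sets as well. In set P1117B those of proximal tubule, distal convoluted tubule, intercalated cells, macrophages, cycling cells, and neurons with Schwann cells, lay below every P1117 library. Those of connecting tubule, parietal epithelium, thin limb and nephron progenitors lay above every P1117 library. The connecting tubule sum was 2493 and 2622 CPM in set P1117B, against 1738 to 2105 CPM in set P1117, and the intercalated cell sum was 689.5 and 690.9 CPM in set P1117B, against 785 to 1239 CPM in set P1117. Nuclei named connecting tubule were 2.40% and 3.07% of nuclei in set P1117B, against 3.05% to 5.70% in set P1117. The connecting tubule sum is therefore not a measure of the share of nuclei. Slc13a3-high proximal tubule nuclei were 11.8% and 14.1% of nuclei in set P1117B, against 3.01% to 10.0% in set P1117. Slc7a13-high proximal tubule nuclei were 13.2% and 14.3% in set P1117B, against 13.9% to 22.1% in set P1117. The part of the shifts in marker sums in the member differences was not tested.

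**Figure D4:**
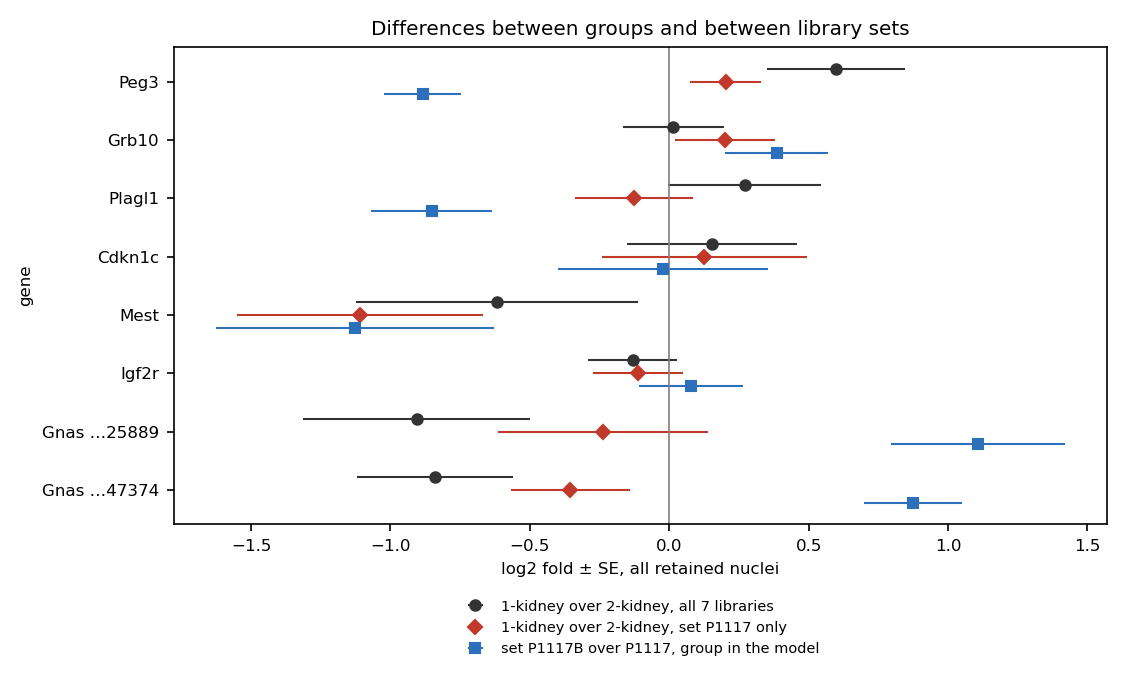
Log2 folds with their SE over all retained nuclei for 8 member identifiers: 1-kidney over 2-kidney in all 7 libraries (circles), the same in set P1117 alone (diamonds), and set P1117B over P1117 with the group in the model (squares). For Peg3 the group fold is 0.60 with all libraries and 0.20 in set P1117, and the set fold is −0.88.

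Within the 12 classes that held at least 50 nuclei in every library, Peg3 was higher in the 1-kidney mean of all 12, with log2 folds of 0.13 to 1.12 and a median of 0.73. Connecting tubule, the segment that fine-tunes calcium and sodium uptake, held 256, 229 and 212 Peg3 CPM in the 1-kidney libraries, against 173, 136, 81.4 and 48.3 CPM in the 2-kidney libraries. Fibroblasts held 293, 306 and 288 Peg3 CPM in the 1-kidney libraries, against 220, 170.5, 140 and 200.2 CPM in the 2-kidney libraries. The groups did not overlap in either class, as for 12.4% of genes in connecting tubule and 16.9% in fibroblasts. In all, they did not overlap for Peg3 in 6 of the 12 classes, beside 12.3% of gene-by-class pairs, and the libraries of sets P1117 and P1117B did not overlap for Peg3 in 10 of 12, beside 27.2%. The classes share libraries, so these counts are not separate checks.

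None of 48 member-by-class tests passed an adjusted p of 0.05 in edgeR, beside 0.402% of 84360 gene-by-class tests, and 9 passed unadjusted. DESeq2 called 1 of them and gave no adjusted p for 14. The smallest adjusted p was that of Peg3 in fibroblasts, where edgeR called 4.26% of genes, with a log2 fold of 0.72 ± 0.22 (adjusted p = 0.0646), and within set P1117 the fold was 0.60 ± 0.24 (adjusted p = 0.188). In connecting tubule, where edgeR called 0.0676% of genes, the Peg3 fold was 1.12 ± 0.29 (adjusted p = 0.121 in edgeR and 0.0260 in DESeq2, which called 0.838% of genes there), and within set P1117 0.59 ± 0.21 (adjusted p = 0.322). Without 2-kidney replicate 1, edgeR called Peg3 in connecting tubule (adjusted p = 0.0267, beside 0.488% of genes) and in fibroblasts (adjusted p = 0.0417, beside 5.06% of genes). Without 2-kidney replicate 2 it called Peg3 in connecting tubule (adjusted p = 0.0488, beside 0.972% of genes). The summed proximal tubule markers, all 10 counted, were at 20729 to 24467 CPM in connecting tubule of the 1-kidney libraries and at 11115 to 21178 CPM in that of the 2-kidney libraries, and their part in the Peg3 difference was not tested. Within set P1117 the Peg3 folds were above 0 in 8 of the 12 classes, from −0.39 in podocytes to 0.60 in fibroblasts.

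Between the sets, Peg3 had a fold below 0 for P1117B over P1117 in all 12 classes and passed in 4 by edgeR, beside 4.46% of gene-by-class tests. It fell by 1.39 ± 0.18 on the log2 scale in the Slc7a13-high proximal tubule (adjusted p = 0.00217, beside 7.44% of genes called). It fell by 1.14 ± 0.21 in the Slc13a3-high proximal tubule (adjusted p = 0.00458, beside 10.5%), by 1.27 ± 0.26 in connecting tubule (adjusted p = 0.00706, beside 4.79%) and by 1.35 ± 0.29 in the Slc4a1-high intercalated cells (adjusted p = 0.0108, beside 5.56%). In set P1117B Plagl1 fell by 2.28 ± 0.50 in the Slc7a13-high proximal tubule (adjusted p = 0.0214) and by 1.47 ± 0.41 in distal convoluted tubule (adjusted p = 0.0286, beside 9.27% of genes called). The Slc7a13-high proximal tubule had the lowest mean Plagl1 level of the named classes. It held 5.97 ± 4.95 CPM in the 2-kidney libraries (SD, n = 4), so the fold there rests on low levels. In fibroblasts 1 of the 2 P1117B values of Peg3 (200.2 CPM) lay between those of the P1117 2-kidney libraries and the other (140 CPM) below them.

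**Figure D5:**
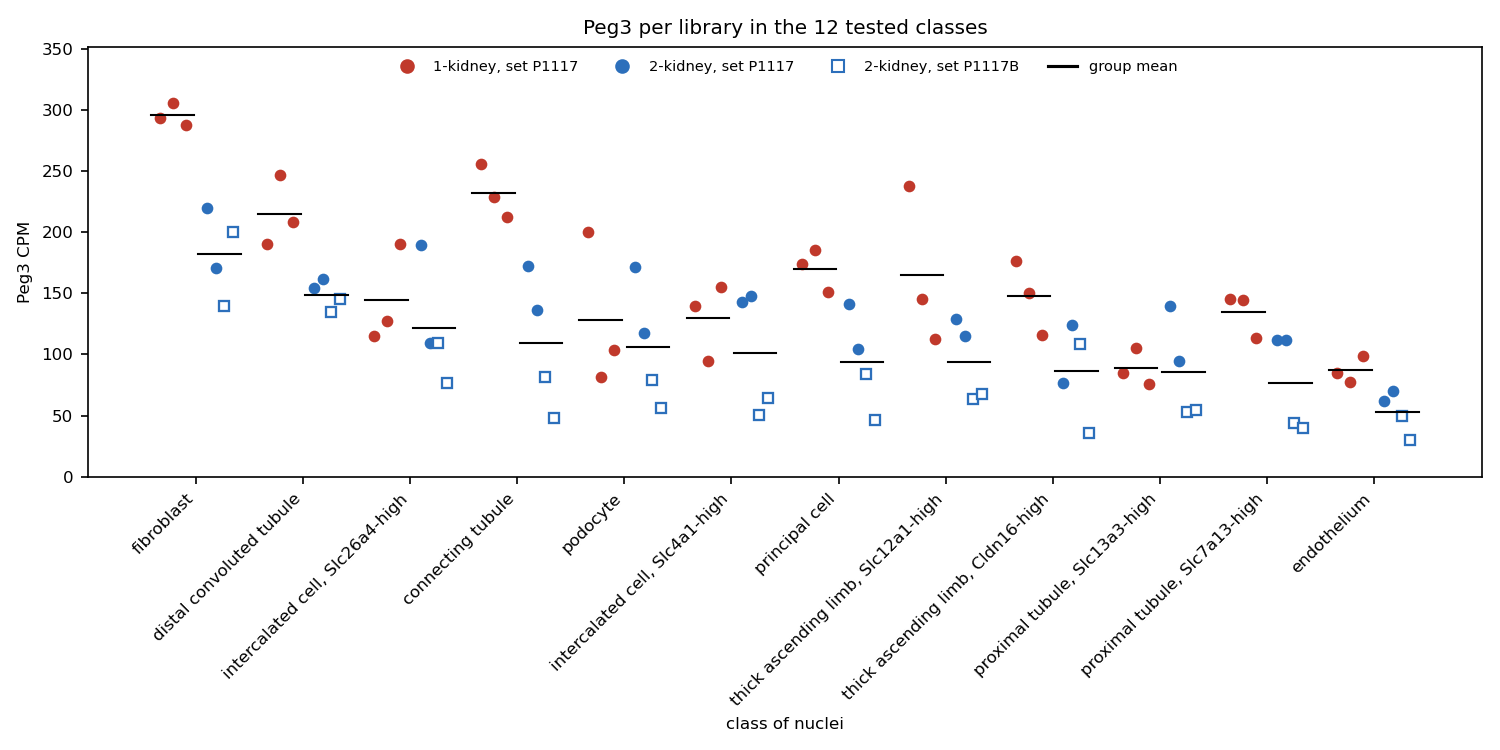
Peg3 CPM per library in the 12 tested classes, ordered by the 2-kidney mean, 1-kidney left of 2-kidney, with open squares for set P1117B and bars for group means. In connecting tubule and fibroblasts all 1-kidney points lie above all 2-kidney points, and in many classes the open squares are the lowest points.

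In podocytes, where edgeR called 0.0488% of genes, Cdkn1c had a log2 fold of 0.80 ± 0.27 (adjusted p = 0.346), from the values given above, which overlapped between groups. Within set P1117 it was 0.66 ± 0.32 (adjusted p = 0.997), and without 2-kidney replicate 1 it was 0.98 ± 0.26 (adjusted p = 0.0391), in a fit that called 3.06% of 5550 genes. Grb10 folds lay between −0.28 and 0.49 over 12 classes and Igf2r folds between −0.32 and 0.38, with no adjusted p under 0.419. Plagl1 folds ran from −0.16 to 0.94 over 7 classes. Gnas ENSRNOG00000047374 held 8.95, 8.61 and 8.22 CPM in endothelium of the 1-kidney libraries, against 14.5, 22.0, 22.5 and 19.2 CPM in that of the 2-kidney libraries. The groups did not overlap, as for 11.9% of genes counted there in every library, and its fold of −1.17 ± 0.42 did not pass (adjusted p = 0.257). The 10 proximal tubule markers summed to 26299 to 37178 CPM in endothelium of the 1-kidney libraries and to 11389 to 22550 CPM in that of the 2-kidney libraries, also without overlap, and their part was not tested. A test of whether the 1-kidney effect differed between classes called 0 of 7 members, beside 1.34% of 10588 genes, and Peg3 alone was under 0.05 unadjusted (adjusted p = 0.312).

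The members were then set beside other genes of their pathways, by lists that were also drawn up with earlier results known. Of 57 other genes imprinted in mouse, 46 were listed and 32 tested in all retained nuclei. By edgeR 0 passed and 10 of the 32 were under 0.05 unadjusted, beside 3070 of all 14940 genes, and DESeq2 called 4, beside 3.25% of all genes. Their median log2 fold was −0.22, with 10 of 32 above 0, beside 49.1% of all genes. Within set P1117 the median was −0.10, with 13 of 32 above 0, beside 49.7% of all genes. The 3 with the smallest p were Calcr (−1.27 ± 0.25), Sgce (−0.92 ± 0.22) and Dcn (−1.35 ± 0.33). Calcr, the calcitonin receptor, averaged 3.85 ± 0.707 CPM in the 1-kidney and 9.62 ± 2.18 CPM in the 2-kidney libraries. The groups did not overlap for Calcr, Sgce or Dcn, as for 18.1% of 16441 genes counted in every library. Of 26 tested genes of IGF and insulin signalling, 5 had a fold above 0 and the median was −0.34, and −0.15 within set P1117. Igf1, the growth hormone-dependent ligand, held 9.50, 6.66 and 13.2 CPM in the 1-kidney libraries, against 22.1, 24.7, 18.6 and 24.1 CPM in the 2-kidney libraries. The groups did not overlap, as for 18.1% of all genes, and the Igf1 fold of −1.16 ± 0.23 did not pass (adjusted p = 0.160). Of 8 fibroblast markers 7 were listed, with Dcn itself among them. They summed to 26.2 to 37.3 CPM in the 1-kidney and to 37.0 to 86.8 CPM in the 2-kidney libraries. Dcn alone held 3.76, 5.80 and 5.30 CPM in the 1-kidney libraries, against 23.2, 10.6, 8.05 and 12.1 CPM in the 2-kidney libraries. The sum is therefore not independent of Dcn, and the part of fibroblasts in the Dcn and Igf1 values was not tested. Irs1, the insulin receptor substrate, stood at −0.73 ± 0.21, and Igf2bp2, which binds Igf2 mRNA, at −0.61 ± 0.19. The groups did not overlap for Irs1 or Igf2bp2 either.

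Among 13 tested cyclin-dependent kinase inhibitors and partners, the 3 smallest p were those of Mki67, a mark of cycling cells (1.12 ± 0.32), Cdk6 (−0.54 ± 0.16) and the inhibitor Cdkn1a (1.40 ± 0.41). Among 22 tested genes of Gs and cAMP signalling they were Ptger4 (−1.13 ± 0.35), Adcy9 (−0.55 ± 0.18) and Adcy5 (−0.55 ± 0.24). Among 9 tested imprint maintenance factors they were the zinc-finger protein Zfp57 (0.54 ± 0.21), its partner Trim28 (0.39 ± 0.19) and the methyltransferase Dnmt3a (−0.21 ± 0.12). The 8 cycling markers, with Mki67 itself among them, summed to 417 to 611 CPM in the 1-kidney and to 229 to 512 CPM in the 2-kidney libraries. Mki67 alone held 158, 140 and 93.7 CPM in the 1-kidney libraries, against 110, 57.0, 39.2 and 41.9 CPM in the 2-kidney libraries. The sum is therefore not independent of Mki67, and the part of cycling cells in the Mki67 and Cdkn1a values was not tested. In none of these 3 lists did a gene pass in edgeR (3, 4 and 1 unadjusted), and DESeq2 called 3, 0 and 0. Over all 14940 genes, 3070 were under 0.05 unadjusted in edgeR and DESeq2 called 3.25%.

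By class, genes of these lists passed in fibroblasts and in none of the other 11 classes by edgeR. Tested in fibroblasts were 17 other imprinted genes, 18 genes of IGF and insulin signalling and 15 of Gs and cAMP signalling. So were 4 cyclin-dependent kinase inhibitors and partners and 7 imprint maintenance factors. In the 1-kidney fibroblasts 6 of these genes fell and none rose. Over all 6789 genes edgeR called 4.26% there, with 193 lower (2.84%) and 96 higher in the 1-kidney libraries. Igfbp3, which binds IGFs in the extracellular space, held 109, 117 and 135 CPM in the 1-kidney libraries, against 826, 290, 361 and 360 CPM in the 2-kidney libraries. It fell by 1.90 ± 0.34 on the log2 scale (adjusted p = 0.00657), and by 2.22 ± 0.35 within set P1117 (adjusted p = 0.00309). Igfbp7, another secreted IGF-binding protein, fell by 0.93 ± 0.21 (adjusted p = 0.0198) and Irs1 by 1.45 ± 0.34 (adjusted p = 0.0242). Dcn, the matrix proteoglycan decorin, whose gene is imprinted in mouse placenta, fell by 1.48 ± 0.33 (adjusted p = 0.0187), and Adcy3, an adenylyl cyclase, by 1.30 ± 0.29 (adjusted p = 0.0191). Within set P1117, Igfbp3, Dcn and Igfbp7 passed, and Adcy3 (adjusted p = 0.0657) and Irs1 (adjusted p = 0.0950) did not. The number of listed genes that passed was 1 without 1-kidney replicate 1, which held 56 fibroblast nuclei, 0 without 1-kidney replicate 2 and 1 with predicted doublets kept. The 10 proximal tubule markers, all counted, summed to 24724 to 35824 CPM in fibroblasts of the 1-kidney libraries and to 8862 to 17687 CPM in those of the 2-kidney libraries, and their part in these falls and in the Peg3 levels was not tested.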

How the data were processed

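Single-nucleus RNA was measured in 7 libraries of rat kidney, 3 from 1-kidney and 4 from 2-kidney animals, grouped by their titles. The authors deposited raw UMI counts for each gene in each barcode. The submitters' processing notes name Cell Ranger 7.0, with genome build, annotation and strand setting not given in the sources used here. A floor for a count of 0 is 3 counts and covers counting error only. Barcodes under 200 genes or above 5% mitochondrial UMIs were left out, and those with the highest Scrublet scores (scanpy 1.11.5) were removed by rank at 0.8% per 1000 barcodes, since the automatic threshold marked at most 4 per library. This left 31227 nuclei, which were clustered (2000 variable genes, 30 components, 20 neighbours, leidenalg 0.10.2 at resolution 1, no integration) into 23 clusters. A cluster was named when at least 3 listed markers were at least 2-fold and the leading one at least 4-fold above other nuclei. Proximal tubule clusters were judged against the median of the other clusters with a bound of 3-fold, a rule chosen after seeing the data.

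UMIs were added up for each library, once over every nucleus kept and once within each class, and given as CPM. They were tested with edgeR 4.0.16 in R 4.3.3 (quasi-likelihood test, TMM, filterByExpr, two-sided), with Benjamini-Hochberg adjustment over all genes tested and a threshold of 0.05. DESeq2 1.42.0 was an alternative. The interaction test used the class sums with the library as a block. Scripts were tested on simulated counts, where 71% of 2-fold differences were recovered over all retained nuclei. By class the share ran from 36% in principal cells to 62% in the Slc7a13-high proximal tubule, so differences of that size can be missed. The difference between library sets, sums without TMM factors and the alternatives for the fibroblast lists were added after seeing the data. The members, lists and markers were chosen with earlier results of these data known. All members are named, and of other lists each gene past the threshold or, with none, the 3 genes of smallest p. Some genes that this rule takes are not reported here. Replicate numbers follow accession order and pair no samples. The labels give each library an animal number but no litter or culture, so p-values measure the spread between these 7 libraries.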

Additional observations from a re-analysis of the deposited data

Results flagged for a closer look

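In 2 of 56 sets of the 4 2-kidney libraries, 1 library lay far from the other 3, and chance gives about 1 in 20. In principal cells Grb10 stood at 65.1 CPM in 2-kidney replicate 1, against 42.7 to 45.5 CPM in the other 2-kidney libraries. In the Slc13a3-high proximal tubule Plagl1 stood at 17.6 CPM in 2-kidney replicate 1, against 7.38 to 8.72 CPM in the others.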

How the results depend on the processing

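No paired analysis was possible because the labels give no replicate numbers, so none can pair libraries across groups. The count of members called over all retained nuclei stayed at 0 under every alternative run. The count of genes called there was 0 under each except DESeq2, with 485, and the count of other imprinted genes called was 0 except with DESeq2, with 4. Member-by-class calls were 0 except for 1 without the filter on low counts, 1 with DESeq2 and 0 to 3 on leaving out each library. Members whose effect differed between classes were 0, and 1 without the filter, which was Peg3. Against 339 gene-by-class calls there were 2228 without the filter, 851 with DESeq2, 98 with predicted doublets kept and 22 to 1325 on leaving out each library. The 6 fibroblast calls of other lists became 1 with doublets kept and 0 to 8 on leaving out each library. RLE size factors, library sizes without TMM, the set as a term and set P1117 alone kept each of these counts, where run, within 1.5 times. The difference between classes was not run with DESeq2, with the set as a term, with library sizes without TMM or with doublets kept. The causes were not tested. Of 775 member folds under the alternatives, 83 had the sign opposite to the main fit, in which no member fold was called. The set as a term changed the sign of 18 of 56 folds, and set P1117 alone that of 17 of 53. Depth limits Igf2, Mest, Cdkn1c outside podocytes and both Gnas identifiers, whose class values rest on few UMIs.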
